A study of Rattus norvegicus with 31 samples.

Results

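Spermatogonial genes were followed across rat testes that had been irradiated and then given sham treatment, hormone ablation, or hormone ablation with estradiol. The set was a list of 34 genes known from undifferentiated spermatogonia, differentiating spermatogonia and the entry to meiosis. It was matched by symbol, older symbols included, to the 14217 genes named on the array. A probe set was named for 21 of the 34, and each gene was represented by its probe set of highest mean over the 31 arrays. Of these 21, 17 passed the filter on low signals described below and were tested. Nanos3, Lin28a, Cdh1 and Neurog3 did not pass it and are given by level. The other 13 genes, Zbtb16, Nanos2, Pou5f1, Utf1, Ddx4, Dazl, Mageb16, Stra8, Sohlh2, Dmrtb1, Rec8, Rhox13 and Prdm9, had no probe set named here and were not analysed here.

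Spermatogonia are the mitotic germ cells at the base of the seminiferous tubule. The undifferentiated cells include the stem cells, and under retinoic acid they become differentiating spermatogonia, which divide several times and then enter meiosis. In LBNF1 rats irradiation is known to leave spermatogonia that do not go on to differentiate, and suppression of gonadotropins and testosterone is known to let differentiation resume. The study's title asks which testicular genes respond to estrogen and how they relate to that recovery.

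All arrays came from LBNF1 rats of 25 to 27 weeks whose lower abdomen had received 6 Gy. Sham treatment was given in 14 arrays. In 11 arrays the rats had hormone ablation, a gonadotropin-releasing hormone antagonist with flutamide, an androgen receptor antagonist. In 6 arrays estradiol was added to a gonadotropin-releasing hormone antagonist and an androgen receptor antagonist. The title of these 6 also speaks of follicle-stimulating hormone supplementation, although estradiol is the agent it lists. Total RNA of whole testes was measured, so fewer cells of a type and less RNA per cell cannot be told apart. The labels call the arrays biological replicates. Titles call all 14 sham testes irradiated, while the descriptions of 10 of them say control testes and those of 4 say irradiated. The 25 sham and ablation arrays came from an earlier deposit and the 6 estradiol arrays from a later one, so estradiol treatment and deposit cannot be told apart.

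Values are deposited MAS5 signals, read as log2 because they include negative numbers, and a level of one probe set cannot be set against that of another. Array medians lay between -1.44 and -1.24. The 40th percentile of an array, which served as the filter level, lay between -1.93 and -1.75. A probe set was tested where it exceeded this level in at least 6 arrays, which held for 21269 probe sets. Markers of other testicular cells differed between groups. With ablation all 7 macrophage markers were called lower than with sham, as were 3 of 5 peritubular myoid and 2 of 4 endothelial markers. Of 7 Leydig cell markers 5 were called lower and 2 higher, and 4 of 7 tested Sertoli cell markers were called higher. The summed log2 level of the 7 macrophage markers ranged from 3.71 to 4.30 in sham, 3.13 to 3.59 in ablation and 3.11 to 3.55 in estradiol arrays. For 9 Sertoli cell markers the ranges were 5.96 to 7.35, 6.90 to 7.30 and 6.30 to 7.26, and for 7 Leydig cell markers 5.77 to 6.81, 5.52 to 5.97 and 5.05 to 6.09. None of 5 tested T cell markers was called in any comparison by limma, and none reached an unadjusted p under 0.05. The part of these markers in the spermatogonial values was not tested.

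Protamine 1 (Prm1) and transition protein 1 (Tnp1), which package DNA in spermatids, stood highest in 3 arrays. Prm1 also differed by group, exceeding the 40th percentile in 6 of 14 sham, 8 of 11 ablation and 0 of 6 estradiol arrays. Its means were -1.76, -0.43 and -5.01. Prm1 was at 5.78 in sham array 6, 3.99 in sham array 7 and 4.18 in ablation array 4, and Tnp1 at 3.56, 1.28 and 1.14. Summed over 10 spermatocyte and spermatid markers, the log2 level ranged from 0.54 to 6.39 in sham, 1.18 to 4.70 in ablation and 1.28 to 1.75 in estradiol arrays. The meiotic genes Spo11 and Sycp1 exceeded the 40th percentile in no array. Tex15 of the same list exceeded it in all 31, with means of -0.64 in sham, 0.34 in ablation and 0.62 in estradiol arrays. For Tex15, 10 of 11 ablation and all 6 estradiol arrays lay above every sham array. Of the 6 tested markers of this list, 5 were higher and 1 lower in the mean with ablation than with sham. With estradiol against sham 3 were higher and 3 lower. In each of these comparisons 1 was called higher and 0 lower. Sham array 6 was the highest of the 14 sham arrays for 7 of the 21 genes, Nanos3, Epcam, Tex101, Sycp3, Cpeb1, Rbm44 and Erhl1. Values without the 3 arrays are therefore given beside the results that moved.

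A promoter window was given in RefSeq (GRCr8) for 15 of the 21 genes, running from 250 bases before to 50 bases after the annotated start. The E-box CACGTG, a sequence of the kind bound by basic helix-loop-helix proteins such as SOHLH1 itself, lay in 4 of the 15 windows, those of Sohlh1, Sycp3, Cpeb1 and Taf4b. Of all 33469 windows, 6.42% held it. The windows of Sohlh1, Sycp3 and Cpeb1 are shown, a choice made with the group differences known. Sohlh1 is a regulator of spermatogonial differentiation, Sycp3 a component of the synaptonemal complex and Cpeb1 a regulator of mRNA polyadenylation. Sohlh1 was called only with estradiol against sham, and the differences of all 3 from sham are descriptions. Taf4b, whose window is not shown, was not called in any comparison with all arrays kept. Sox3 and Epcam, both called higher with ablation, had no E-box in their windows. Whether the E-box goes with a difference between groups was not tested. Each window shown is printed 5′ to 3′ along the transcript, with capitals for the E-box and for the nuclear receptor hexamer AGGTCA.
Sohlh1, chr3:29065539-29065838, minus strand: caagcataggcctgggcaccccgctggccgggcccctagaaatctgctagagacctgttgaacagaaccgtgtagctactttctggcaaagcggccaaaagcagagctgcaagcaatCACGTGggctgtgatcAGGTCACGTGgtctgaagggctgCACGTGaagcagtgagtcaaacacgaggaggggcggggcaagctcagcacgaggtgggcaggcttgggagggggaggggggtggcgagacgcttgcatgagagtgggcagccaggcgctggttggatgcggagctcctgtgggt
Sycp3, chr7:24761226-24761525, plus strand: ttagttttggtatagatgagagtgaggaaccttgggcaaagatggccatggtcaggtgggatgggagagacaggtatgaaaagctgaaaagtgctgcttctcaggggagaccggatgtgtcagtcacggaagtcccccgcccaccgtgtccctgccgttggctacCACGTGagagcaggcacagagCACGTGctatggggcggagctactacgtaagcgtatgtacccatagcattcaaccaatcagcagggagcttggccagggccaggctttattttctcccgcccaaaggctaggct
Cpeb1, chr1:144816214-144816513, minus strand: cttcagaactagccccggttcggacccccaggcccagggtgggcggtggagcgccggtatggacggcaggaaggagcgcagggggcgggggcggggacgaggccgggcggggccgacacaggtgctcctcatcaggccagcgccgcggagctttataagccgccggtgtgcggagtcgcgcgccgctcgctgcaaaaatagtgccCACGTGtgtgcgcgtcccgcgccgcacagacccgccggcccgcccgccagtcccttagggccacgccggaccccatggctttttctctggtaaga
The Sohlh1 window held 3 E-boxes, whose first bases lay at -133, -113 and -94 from the start. The Sycp3 window held 2, at -85 and -64, and the Cpeb1 window held 1, at -45. The hexamer AGGTCA, searched on both strands as all motifs were, lay in 2 of the 15 windows, at -117 in Sohlh1, where it overlaps the second E-box, and at 37 in Adgra3. It lay in 16.2% of all windows. The full palindromic estrogen response element and the direct repeat of the hexamer at the spacing of the retinoic acid response were found in none of the 15, and in 9 and 3 of all windows. A match says only that these letters are in the window.

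The number of spermatogonial genes above the filter level differed between the groups. In sham arrays 6 to 12 of the 21 genes exceeded the 40th percentile of their array (median 8). In ablation arrays it was 11 to 17 (median 13), and in estradiol arrays 14 to 16 (median 15). By definition 40% of all probe sets lie at or below this level in every array. Among the 21 are Sall4, Cpeb1, Rbm44, Rcor2 and Erhl1, already known from an earlier analysis to differ between sham and ablation. The counts are therefore a description. Uchl1, Foxo1, Adgra3 and Ccnd2 exceeded it in all 31 arrays. Nanos3, Cdh1 and Neurog3 exceeded it in none. Sall4, Cpeb1 and Sohlh1 exceeded it in no sham array. Sall4 and Cpeb1 did so in 8 of 11 ablation and in all 6 estradiol arrays, and Sohlh1 in 4 of 11 and 3 of 6. Epcam passed from 6 of 14 sham arrays to all ablation and all estradiol arrays, and Sycp3 from 3 of 14 to all of both. The 40th percentile is a setting of the analysis. Against the 20th percentile 9 genes lay above in all 31 arrays, and against the 60th percentile 1.

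**Figure D1:**
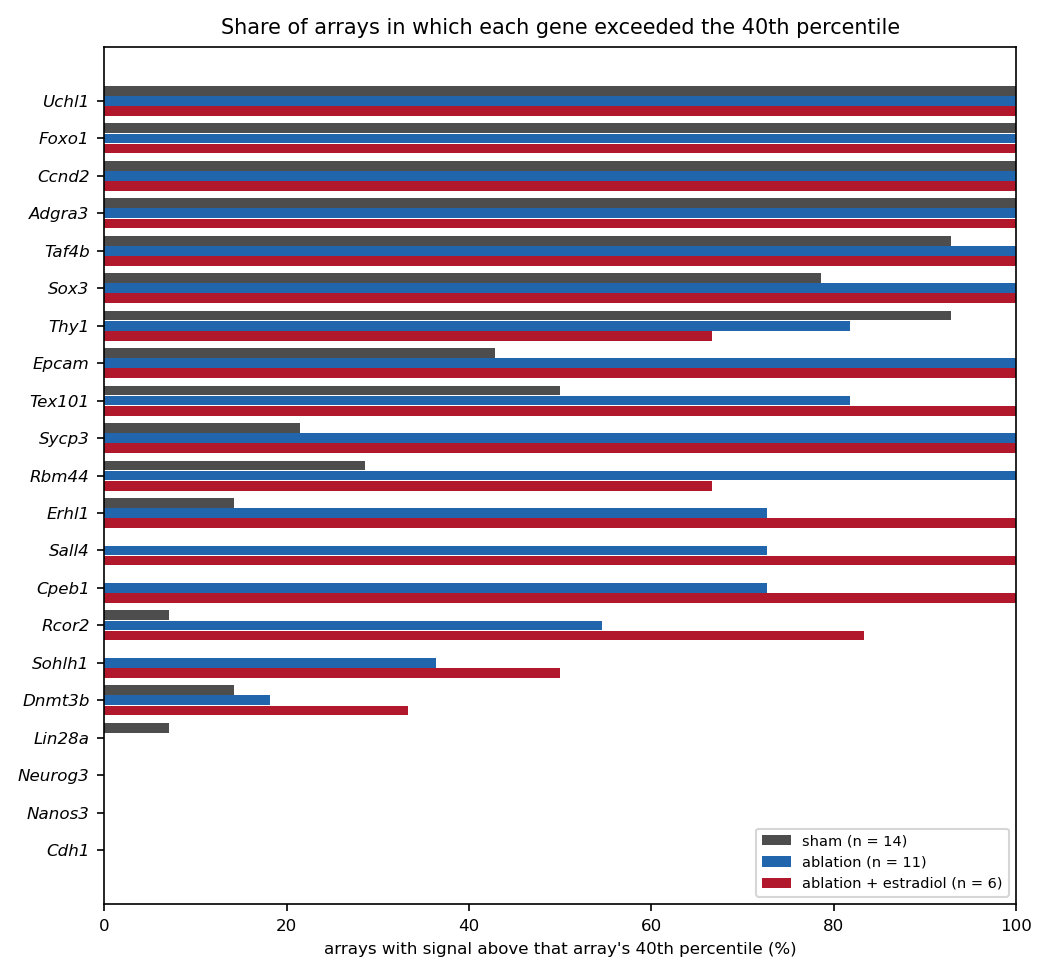
Share of the arrays of each group (percent, horizontal axis; 14 sham, 11 ablation, 6 estradiol arrays) in which each of the 21 genes lay over the 40th percentile of that array. Uchl1, Foxo1, Ccnd2 and Adgra3 fill the axis in all 3 groups, whereas Sall4, Cpeb1 and Sohlh1 have no sham bar.

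Against sham, a part of the spermatogonial genes was higher with hormone ablation, and none of those tested fell. Called means an adjusted p under 0.05 from limma, with Benjamini-Hochberg adjustment over all 21269 probe sets. Of the 17 tested genes, 10 were called higher and 0 lower, against 9.15% higher and 10.3% lower among all tested probe sets. None of the 17 was lower at an unadjusted p under 0.05 either. The median log2 difference was 0.83, against 0.02 over all probe sets. Of the 10, 5 were Sall4, Cpeb1, Rbm44, Rcor2 and Erhl1, which had stood among the highest changes of this comparison in an earlier analysis of the same arrays and are given here only as a description. Of the other 12 tested genes 5 were called higher, with a median of 0.46. Several genes also passed the filter through the ablation and estradiol arrays alone, which makes a difference likely by construction. The 9 genes above the filter level in at least 6 sham arrays do not have this limit. Of these, 3 rose, Sox3, Epcam and Adgra3, with a median over the 9 of 0.09, and among all probe sets chosen in the same way 9.25% were called higher. Without the 3 arrays high in spermatid RNA 9 of the 17 were called.

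**Figure D2:**
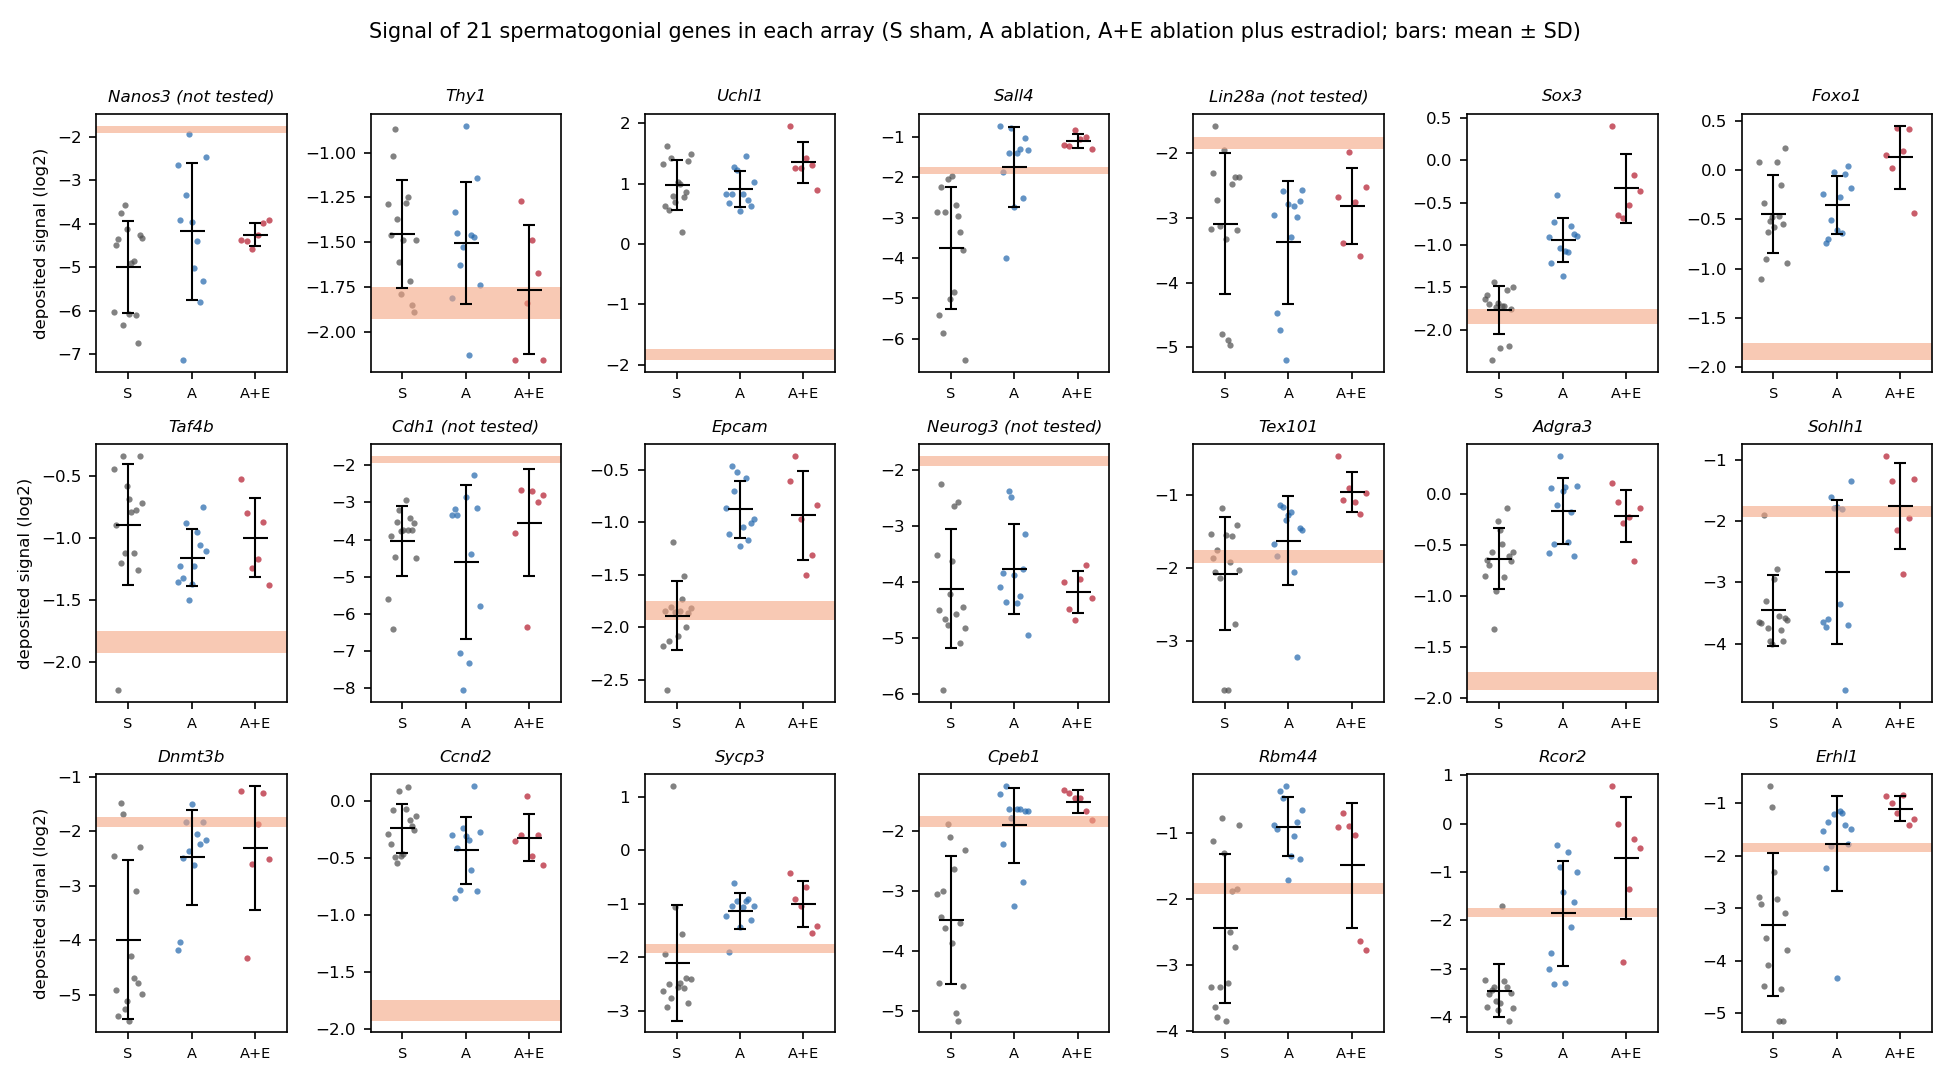
Deposited signal (log2, vertical axis, its own scale in each panel) of the 21 genes in every array of the sham (S), ablation (A) and ablation plus estradiol (A+E) groups, with mean and SD as bars and the range of the arrays' 40th percentiles as a shaded band. In the Sox3 panel all ablation and estradiol points lie above all sham points, while the Uchl1, Foxo1 and Ccnd2 points overlap and stay above the band.

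Among the regulators of undifferentiated spermatogonia, Sox3 separated the groups most fully. Sox3 encodes an X-linked transcription factor needed for spermatogonial differentiation. Its signal ran from -2.36 to -1.43 in sham arrays (median -1.71), from -1.36 to -0.41 in ablation arrays (median -0.91), and stood at 0.41, -0.65, -0.68, -0.53, -0.17 and -0.36 in the 6 estradiol arrays. All 11 ablation arrays lay above all 14 sham arrays, a separation found in 0.371% of all probe sets. The difference was 0.83 ± 0.12 (log2, SE; 1.77-fold; adjusted p = 4.32e-06, limma). It was 0.75 when all values under the 40th percentile were raised to it, so most of it lay above the filter level.

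Sall4, a zinc finger transcription factor of undifferentiated spermatogonia, ran from -6.54 to -1.98 in sham (median -3.17), from -4.01 to -0.72 in ablation (median -1.40) and from -1.30 to -0.83 in estradiol arrays (median -1.12). The sham values were spread over a wide range below the filter level, and 8 of 11 ablation arrays lay above all of them. The ablation mean was 2.01 ± 0.45 (SE) above the sham mean, and 0.46 with low values raised to the filter level. A distance between 2 values below that level carries little meaning on its own.

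Foxo1, a forkhead factor required for maintenance of spermatogonial stem cells, and Taf4b, a germ cell subunit of the general transcription machinery, were not called with ablation. Foxo1 ran from -1.11 to 0.22 in sham (median -0.50) and from -0.74 to 0.04 in ablation (median -0.27), and the groups overlapped. The difference was 0.09 ± 0.13 (SE; adjusted p = 0.685, limma; 95% interval -0.18 to 0.37). Taf4b ran from -2.23 to -0.34 in sham and from -1.50 to -0.75 in ablation, a difference of -0.27 ± 0.15 (adjusted p = 0.226). Without sham array 3, its lowest sham array, Taf4b was called lower at -0.37 (adjusted p = 0.0264). The other 3 regulators with a probe set remained below the filter level throughout or nearly so. Mean signals in sham, ablation and estradiol arrays were -5.00, -4.18 and -4.26 for the RNA-binding protein gene Nanos3. They were -3.09, -3.37 and -2.82 for Lin28a, another RNA-binding protein gene, and -4.11, -3.77 and -4.18 for Neurog3, a basic helix-loop-helix factor of undifferentiated spermatogonia primed to differentiate. Lin28a exceeded the filter level in 1 array.

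Surface proteins used to mark spermatogonia split into those that rose and those that were not called. Epcam, an epithelial cell adhesion molecule of spermatogonia and of many epithelia, ran from -2.60 to -1.19 in sham (median -1.85), from -1.23 to -0.47 in ablation (median -0.97) and stood at -0.61, -0.37, -0.97, -1.50, -1.31 and -0.84 in estradiol arrays. In 10 of 11 ablation arrays it lay above every sham array, sham array 6 being the highest of those. Epcam was 1.01 ± 0.14 (log2, SE; 2.02-fold) higher with ablation (adjusted p = 4.42e-07, limma), and 0.88 with low values raised. Because Epcam also marks ducts, the epithelial markers are given beside it. Of 8 with a probe set 3 were tested, and Krt19 was called higher with ablation (0.43). Their summed level ranged from 0.91 to 1.41 in sham, 1.10 to 1.70 in ablation and 0.92 to 1.50 in estradiol arrays, and Pax8, Cldn4 and Cdh16 never exceeded the filter level. The part of ducts in the Epcam difference was not tested.

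Adgra3 (Gpr125), an adhesion receptor, ran from -1.33 to -0.14 in sham (median -0.63) and from -0.61 to 0.37 in ablation (median -0.11). The groups overlapped, with 6 of 11 ablation arrays above every sham array. The difference was 0.47 ± 0.12 (SE; 1.39-fold; adjusted p = 0.00397, limma). Against the 4 sham arrays described as irradiated alone it was 0.32 and not called (adjusted p = 0.231). A second probe set of Adgra3 was above the filter level in no array, and with the mean of both the difference was -0.34.

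Thy1, a glycoprotein of stem cells and of several somatic cells, and Uchl1, a deubiquitinase of spermatogonia, were not called with ablation. Thy1 had a median of -1.47 in both groups, and the difference was -0.05 ± 0.14 (SE; adjusted p = 0.858, limma; 95% interval -0.33 to 0.23). A second, lower probe set of Thy1 differed by -0.94 and was not called either (adjusted p = 0.0836, limma). That probe set exceeded the filter level in 5 of 14 sham and 0 of 11 ablation arrays. Uchl1 ran from 0.19 to 1.63 in sham and from 0.54 to 1.45 in ablation, with a difference of -0.07 ± 0.14 (adjusted p = 0.787; 95% interval -0.35 to 0.21). The ablation arrays lay within the sham range for Uchl1 and, apart from 2, for the first probe set of Thy1. Tex101, a germ cell surface glycoprotein, ran from -3.67 to -1.18 in sham (median -1.89) and from -3.22 to -1.14 in ablation (median -1.45), and was not called (0.45 ± 0.25, adjusted p = 0.206). Cdh1, the gene of E-cadherin, stayed below the filter level in all arrays, with means of -4.04, -4.61 and -3.55 in sham, ablation and estradiol arrays.

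Among the genes of differentiating spermatogonia, Dnmt3b was called on signals that were mostly below the filter level. Dnmt3b encodes a de novo DNA methyltransferase. It ran from -5.48 to -1.48 in sham (median -4.74) and from -4.19 to -1.50 in ablation (median -2.24), and exceeded the filter level in 2 arrays of each group. The difference was 1.51 ± 0.50 (SE; adjusted p = 0.0273, limma), and 0.01 with low values raised (adjusted p = 0.962). The call was also lost without ablation array 6 (1.41, adjusted p = 0.051), without the 3 arrays high in spermatid RNA (1.25, adjusted p = 0.0864) and against only the 4 sham arrays with an irradiated description (1.31, adjusted p = 0.149).

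Sohlh1, whose window with 3 E-boxes is printed above, ran from -4.00 to -1.90 in sham (median -3.63) and from -4.76 to -1.35 in ablation (median -3.35). In ablation arrays 4 values exceeded the filter level and the other 7 did not, and the gene was not called (0.63 ± 0.36, adjusted p = 0.236, limma). Ccnd2, a D-type cyclin of dividing spermatogonia and other cells, ran from -0.55 to 0.12 in sham and from -0.85 to 0.13 in ablation, and was not called (-0.19 ± 0.10, adjusted p = 0.192). Of the 3 tested genes of differentiating spermatogonia, only Dnmt3b was therefore called.

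Sycp3, which forms the axes of meiotic chromosomes, differed between groups with 1 sham array apart. Of the 14 sham arrays, 12 lay between -2.93 and -1.57, sham array 7 lay at -1.06 and sham array 6 at 1.20. The ablation arrays ran from -1.90 to -0.62 (median -1.05) and the estradiol arrays stood at -0.43, -0.92, -1.04, -0.69, -1.55 and -1.41. With all arrays the ablation mean was 0.97 ± 0.29 (SE) above the sham mean (adjusted p = 0.0146, limma), and 0.41 with low values raised, which was not called (adjusted p = 0.211). It was 0.79 and not called against the 10 sham arrays described as control, which include arrays 6 and 7 (adjusted p = 0.0956), and 0.78 and not called without the 8 arrays farthest out within their groups (adjusted p = 0.108). Without the 3 arrays high in spermatid RNA, a choice made after seeing the data, it was 1.28 ± 0.16, and without sham array 6 alone 1.23. Sycp3 exceeded the filter level in 3 of 14 sham arrays and passed the filter through the ablation and estradiol arrays. Its difference from sham is therefore a description.

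**Figure D3:**
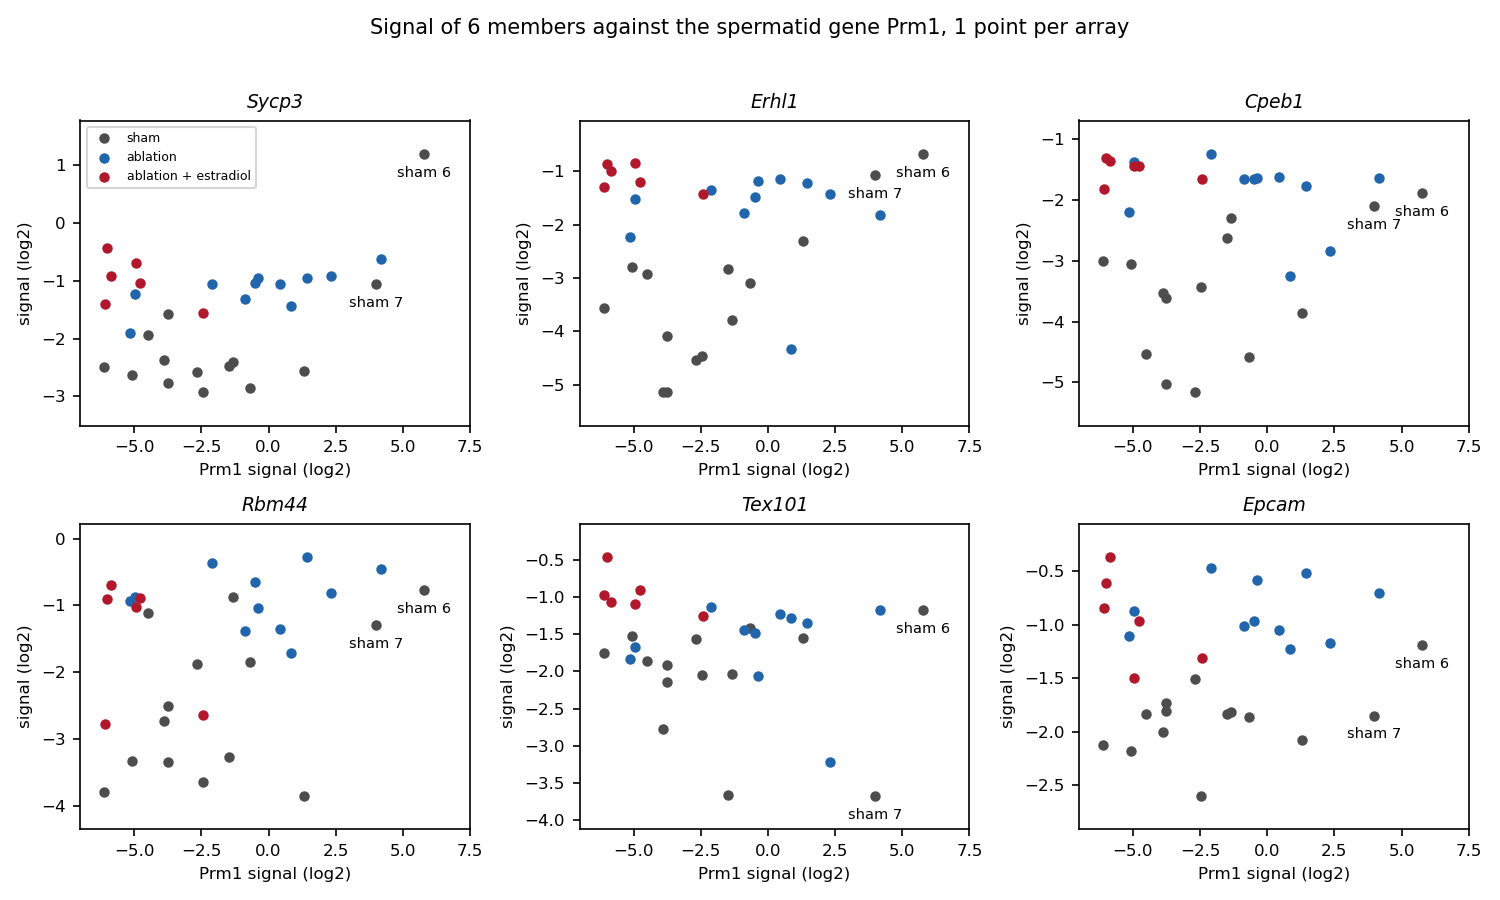
Signal (log2) of Sycp3, Erhl1, Cpeb1, Rbm44, Tex101 and Epcam in each array (vertical axes) against the signal (log2) of the spermatid gene Prm1 (horizontal axes), coloured by group. In the Sycp3 panel sham array 6 stands alone at 1.20 while the sham arrays other than 6 and 7 lie at or below -1.57, and estradiol arrays are high in Sycp3 at low Prm1.

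The remaining 4 genes, all among the highest changes of the earlier analysis, are described by their values. Cpeb1 ran from -5.16 to -1.89 in sham (median -3.49) and from -3.25 to -1.25 in ablation (median -1.66). The ablation mean was 1.58 ± 0.32 (SE) higher, but 0.20 with low values raised, so most of this distance lay below the filter level. Rbm44, an RNA-binding protein of the bridges between germ cells, ran from -3.85 to -0.77 in sham (median -2.61) and from -1.71 to -0.28 in ablation (median -0.88). Its ablation values were all above the filter level, and the mean was 1.55 ± 0.33 higher, or 0.70 with low values raised. Rcor2, a subunit of a chromatin corepressor complex, lay between -4.08 and -3.24 in 13 sham arrays and at -1.71 in sham array 9. In ablation arrays it ran from -3.33 to -0.44, with 6 of 11 above the filter level, and the mean was 1.60 ± 0.35 higher (0.47 with low values raised). Erhl1 ran from -5.14 to -0.67 in sham (median -3.33) and from -4.33 to -1.15 in ablation (median -1.48), and the mean was 1.54 ± 0.40 higher (0.20 with low values raised). The 2 highest sham values of Erhl1 were those of sham arrays 6 and 7, at -0.67 and -1.07, and without the 3 arrays high in spermatid RNA its difference was 1.95.

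**Figure D4:**
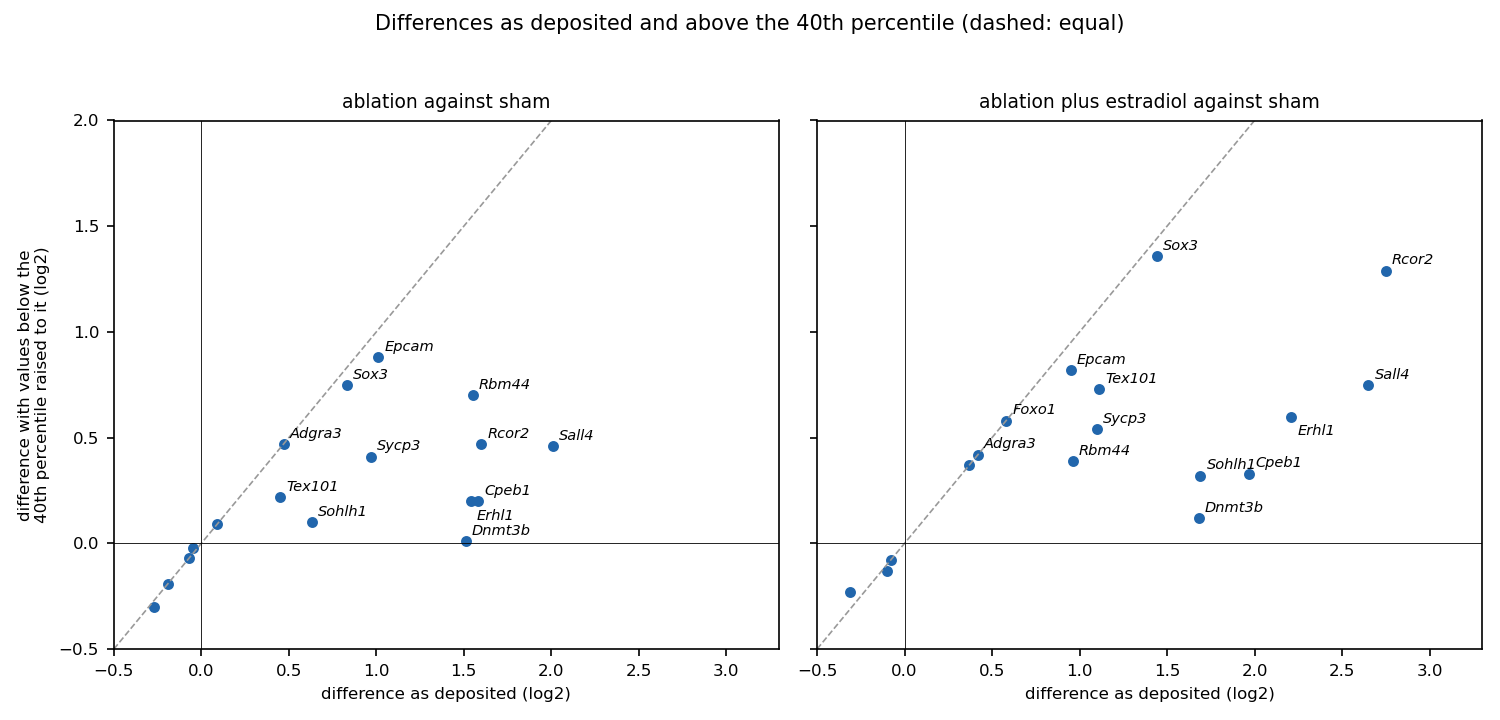
Log2 difference of each of the 17 tested genes with the values as deposited (horizontal axis) and with values below the 40th percentile raised to it (vertical axis), for ablation against sham and for ablation plus estradiol against sham. Sox3, Epcam and Adgra3 lie near the dashed line of equality in both panels, and Dnmt3b, Cpeb1 and Erhl1 lie far below it.

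Estradiol on top of ablation was compared with ablation alone. These arrays differ in the added estradiol and also in the deposit, which cannot be told apart. Of the 17 tested genes Sox3 alone was called higher and 0 were called lower, against 0.592% higher and 4.92% lower among all tested probe sets. At an unadjusted p under 0.05 from limma, 6 of the 17 were higher and 0 lower. Of these 6, 4 belonged to the 9 genes above the filter level in at least 6 sham arrays. The share of all probe sets at the unadjusted threshold was not counted, so this count is a description. The median difference was 0.39 over the 17, 0.16 over the 9 genes above the filter level in at least 6 sham arrays and -0.03 over all probe sets. The split of all calls depended on scaling, with 126 higher and 1047 lower as deposited and 312 higher and 988 lower after quantile normalization. With 6 arrays in one group the precision was limited. In simulated data changes of 0.5 in this comparison were recovered in 26.9% of cases and changes of 1 in 77.6%.

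Sox3 was 0.61 ± 0.16 (log2, SE; 1.53-fold) higher in the estradiol arrays than with ablation alone (adjusted p = 0.013, limma; 95% interval 0.29 to 0.93). In 3 of 6 estradiol arrays it exceeded every ablation array, and the groups overlapped. The call rested on estradiol array 1, the highest at 0.41. Without that array the difference was 0.46 and not called (adjusted p = 0.0762), and without the 8 arrays farthest out within their groups, which include it, 0.43 and not called (adjusted p = 0.0862).

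Other regulators and markers were higher in the mean but not called. Foxo1 ran from -0.44 to 0.43 in the estradiol arrays (median 0.17), and 4 of 6 exceeded every ablation array. Its difference was 0.48 ± 0.17 (SE; adjusted p = 0.0949, limma; 95% interval 0.14 to 0.83). It was called after quantile normalization (0.54, adjusted p = 0.0328), after median centring (0.53, adjusted p = 0.0465) and without estradiol array 6 (0.60, adjusted p = 0.0404). The Foxo1 call thus changed with the scaling and with 1 array.

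Tex101 stood at -0.47, -1.07, -0.91, -1.10, -1.26 and -0.98 in the estradiol arrays, and 5 of 6 exceeded every ablation and every sham array. The difference from ablation was 0.66 ± 0.31 and not called (adjusted p = 0.266, limma). With low values raised to the filter level it was 0.51 and called (adjusted p = 0.00743). Uchl1 ran from 0.90 to 1.96 (median 1.28), a difference of 0.44 ± 0.17 that was not called (adjusted p = 0.162; 95% interval 0.09 to 0.79). Epcam and Adgra3, which rose with ablation, differed from ablation alone by -0.06 ± 0.17 (95% interval -0.40 to 0.29) and -0.05 ± 0.15 (95% interval -0.35 to 0.26). The 95% interval of Sox3 was 0.29 to 0.93, and its difference was 0.46 and not called without estradiol array 1. With the mean of its probe sets Adgra3 differed by 0.67, which was not called. The difference between Sox3 and these genes was not tested.

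No gene of differentiation or of meiosis among the 17 was called with estradiol against ablation alone. Sohlh1 stood at -0.94, -1.35, -2.15, -2.86, -1.95 and -1.32 in the estradiol arrays, with 3 of 6 above the filter level. Its difference from ablation was 1.06 ± 0.45 (SE; adjusted p = 0.206, limma; 95% interval 0.14 to 1.99), and 0.21 with low values raised. Sycp3 differed by 0.13 ± 0.36 (adjusted p = 0.908), Dnmt3b by 0.17 ± 0.62 (adjusted p = 0.931) and Ccnd2 by 0.11 ± 0.13 (adjusted p = 0.735). These intervals are wide for Sycp3 (-0.61 to 0.87) and Dnmt3b (-1.10 to 1.44).

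Rcor2 was widely spread within the estradiol group, at 0.78, -0.01, -2.86, -1.35, -0.31 and -0.50. Its difference from ablation was 1.15 ± 0.44 (SE; adjusted p = 0.144, limma). It was called without estradiol array 3, the lowest (1.58, adjusted p = 0.0209), and with low values raised (0.82, adjusted p = 0.032). Rbm44 stood at -0.90, -0.69, -0.89 and -1.03 in estradiol arrays 1 to 4 and at -2.64 and -2.78 in arrays 5 and 6, below the filter level. It was lower in the mean than with ablation alone, by a difference of -0.59 ± 0.42 that was not called (adjusted p = 0.527). Sall4, Cpeb1 and Erhl1 lay in narrow ranges in the estradiol arrays, from -1.30 to -0.83, from -1.82 to -1.31 and from -1.42 to -0.85. Their differences from ablation were 0.64 ± 0.56, 0.39 ± 0.41 and 0.67 ± 0.51, none of them called.

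**Figure D5:**
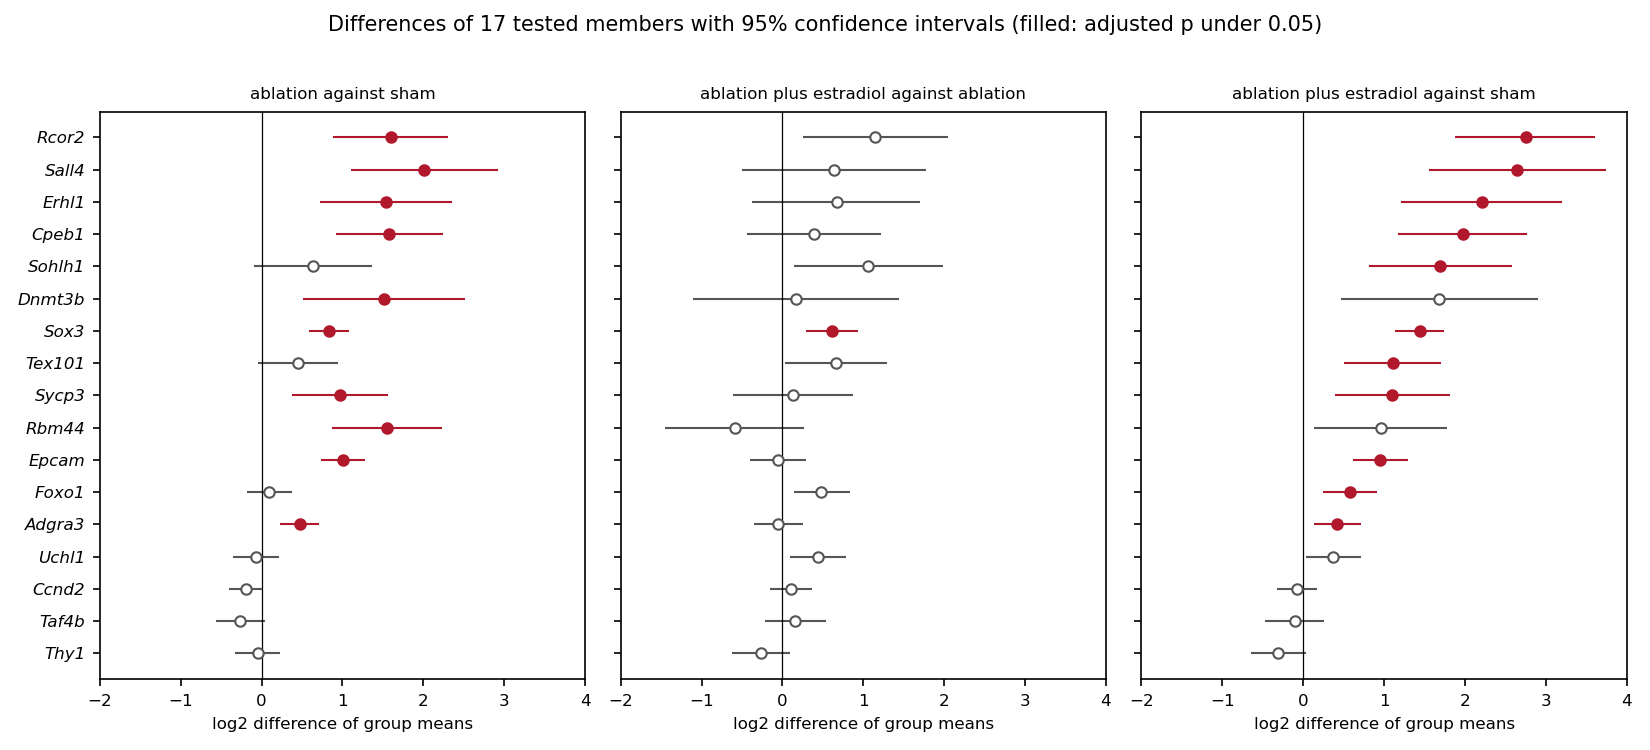
Log2 difference of group means (horizontal axis) with 95% confidence intervals for the 17 tested genes in the 3 comparisons, with filled points where the adjusted p was under 0.05. In the middle panel Sox3 is the single filled point, at 0.61, and most other points lie to the right of 0 with intervals of differing width.

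Estradiol with ablation was also compared with sham, where treatment and deposit again cannot be told apart. These values use the same sham arrays as ablation against sham, so the 2 comparisons are not independent and are set side by side only. Of the 17 tested genes 11 were called higher and 0 lower, against 4.15% higher and 10.4% lower among all tested probe sets, and none was lower at an unadjusted p under 0.05. The median was 1.10, against -0.03 over all probe sets. Apart from the 5 of the earlier analysis, 7 of 12 were called higher, with a median of 0.76. These 7 include Sohlh1 and Sycp3, which passed the filter through the ablation and estradiol arrays, so the counts of 11 and 7 are a description. Of the 9 genes above the filter level in at least 6 sham arrays 5 rose, Sox3, Epcam, Foxo1, Tex101 and Adgra3, with a median over the 9 of 0.42, and among all probe sets chosen in the same way 3.98% were called higher. As deposited, 882 probe sets in all were higher and 2211 lower, and after quantile normalization 1753 and 1963. Without the 3 arrays high in spermatid RNA 12 of the 17 were called.

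Sox3 was 1.44 ± 0.15 (log2, SE; 2.71-fold) above sham with estradiol (adjusted p = 3.14e-09, limma), beside 0.83 with ablation alone. All 6 estradiol arrays lay above all 14 sham arrays, a separation seen in 0.649% of all probe sets. Epcam was 0.95 ± 0.16 above sham (adjusted p = 4.22e-05), beside 1.01 with ablation alone, with 4 of 6 estradiol arrays above every sham array. Both genes kept most of the difference with low values raised, at 1.36 and 0.82.

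Foxo1 rose against sham by 0.58 ± 0.16 (SE; 1.49-fold; adjusted p = 0.0121, limma), although 4 of 6 estradiol arrays lay within the sham range. Tex101 rose by 1.11 ± 0.30 (2.16-fold; adjusted p = 0.00777), and 0.73 with low values raised. Neither was called against the 4 sham arrays described as irradiated alone, with differences of 0.49 (adjusted p = 0.169) and 0.98 (adjusted p = 0.0531). Foxo1 had 2 more probe sets, both below the filter level in nearly all arrays, and with the mean of all 3 its difference was 0.50 and not called (adjusted p = 0.296). Adgra3 was 0.42 ± 0.14 above sham (adjusted p = 0.0423). It was no longer called when any of 10 single arrays was left out (sham arrays 1, 5, 6, 10 and 13 and estradiol arrays 1, 2, 3, 4 and 6), the adjusted p rising to 0.122 at most. It was also not called without the filter (adjusted p = 0.0598), with the mean of both probe sets (0.33, adjusted p = 0.553), against the 4 irradiated-described sham arrays (0.28, adjusted p = 0.443) or without the 8 arrays farthest out (0.29, adjusted p = 0.253).

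Sohlh1, 1 of the 11 called, exceeded the filter level in no sham array and was tested only through the ablation and estradiol arrays, so its difference is a description. The estradiol mean was 1.69 ± 0.44 (SE) above a sham mean that lay below the filter level, and 0.32 with low values raised. Sycp3 was 1.10 ± 0.35 above sham (adjusted p = 0.0283, limma), and 1.46 ± 0.19 without the 3 arrays high in spermatid RNA. It too passed the filter through the ablation and estradiol arrays, so these differences are a description. With all arrays kept, the Sycp3 call was lost without estradiol array 1, 2 or 4 (adjusted p up to 0.0791) and with low values raised (0.54, adjusted p = 0.211). It was also lost against the 10 sham arrays described as control (0.92, adjusted p = 0.117), in a fit of the compared groups only (adjusted p = 0.0802) and without the 8 arrays farthest out within their groups (0.72, adjusted p = 0.259).

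Dnmt3b was not called against sham (1.68 ± 0.60, adjusted p = 0.0537, limma), and the difference was 0.12 with low values raised. It was called with no filter, after quantile normalization or median centring, without a variance trend, with the mean of all probe sets, without the 8 arrays farthest out within their groups (2.17, adjusted p = 0.0106), and without any of sham arrays 1, 4, 5, 11 and 13, ablation arrays 1 and 2 and estradiol array 2 (adjusted p down to 0.0188). Uchl1 (0.37 ± 0.17, adjusted p = 0.148), Thy1 (-0.31 ± 0.17, adjusted p = 0.248), Taf4b (-0.10 ± 0.18, adjusted p = 0.784) and Ccnd2 (-0.08 ± 0.12, adjusted p = 0.742) were not called. Among the 5 genes of the earlier analysis the estradiol mean exceeded the sham mean by 2.65 ± 0.54 for Sall4, 1.97 ± 0.39 for Cpeb1, 2.75 ± 0.43 for Rcor2, 2.21 ± 0.49 for Erhl1 and 0.96 ± 0.41 for Rbm44. With low values raised these differences were 0.75, 0.33, 1.29, 0.60 and 0.39. All 6 estradiol arrays lay above every sham array for Sall4 and Cpeb1. Rbm44 had the 2 low estradiol arrays named above, and it was called only without the 3 arrays high in spermatid RNA (1.19) and with array weights (1.09). The 5 genes were known from an earlier analysis of the same sham arrays, so their differences from sham are descriptions here too.

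Other genes of the same stages, from lists drawn up beside the 34, moved in both directions with ablation. The list of undifferentiated spermatogonia held 34 genes, among them Neurog3 again under its older symbol Ngn3, which was not tested. Of the 22 tested genes of this list, 8 rose and 2 fell against sham, with a median of 0.11. The shares among all tested probe sets were 9.15% higher and 10.3% lower, for this list and those that follow. Egr4, a zinc finger transcription factor needed for male fertility, rose by 1.35 ± 0.16 (SE; adjusted p = 2.85e-08, limma). Mycn rose by 0.63 ± 0.10 and the integrin gene Itga6 by 0.51 ± 0.10. Of the 22 tested genes, 12 were higher and 10 lower in the mean. Among the lower ones, Cd9 had means of 0.63 in sham and -0.03 in ablation arrays, and lay above the filter level in all 31 arrays. Plvap had means of -2.19 and -3.13, and exceeded the filter level in 7 of 14 sham and 0 of 11 ablation arrays. Ret, the signalling receptor for GDNF, was higher by 1.18 ± 0.18, and by 0.26 with low values raised. Ret exceeded the filter level in 0 of 14 sham arrays and was tested only through the other groups, so its difference is a description. The counts of these lists include such genes. Of 22 further genes of differentiating and dividing spermatogonia 17 were tested, and 7 rose and 3 fell, with a median of 0.36. Tex14, needed for germ cell bridges, rose by 0.87 ± 0.11 (adjusted p = 1.24e-07), the proliferation gene Mki67 by 1.08 ± 0.16 and Tdrd1, a Tudor domain gene of germ cells, by 0.72 ± 0.13. The cyclin gene Ccnd3 fell by 0.51 (log2; adjusted p = 7.86e-04). Kit, the receptor of differentiating spermatogonia that Leydig cells also express, was among the 3 that fell. Of 15 genes of the retinoic acid response and entry to meiosis 6 were tested, and Stag3, a meiotic cohesin gene, was the 1 that rose (0.56 ± 0.17, adjusted p = 0.016).

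With estradiol against ablation alone, Ret was the 1 gene called of the 22 tested of undifferentiated spermatogonia (0.81 ± 0.22, adjusted p = 0.0237, limma). Among all tested probe sets 0.592% were called higher and 4.92% lower in this comparison. Of the 17 tested genes of differentiating spermatogonia 3 rose. They were Dmrt1, a transcription factor of spermatogonia and Sertoli cells (0.65 ± 0.14, adjusted p = 0.0019), the cyclin gene Ccna2 (0.79 ± 0.24, adjusted p = 0.0424), and Uhrf1, a partner of DNA methylation (0.77 ± 0.21). Uhrf1 exceeded the filter level in 1 sham, 1 ablation and 6 estradiol arrays. It was tested only through the estradiol arrays, so its difference is a description. No gene of either list was called lower, and 1 and 2 genes were lower at an unadjusted p under 0.05. None of the 6 genes of the retinoic acid response and meiosis was called by limma, and 1 had an unadjusted p under 0.05. Against sham, where 4.15% of all tested probe sets were called higher and 10.4% lower, 7 of the 22 rose and 1 fell (median 0.29), led by Ret (1.98 ± 0.22), Egr4 (1.69 ± 0.19), Mycn (0.97 ± 0.12) and Gfra1, the GDNF co-receptor (0.59 ± 0.10). Of the 17, 11 rose and 2 fell (median 0.59), led by Tex14 (1.05 ± 0.13), Dmrt1 (0.93 ± 0.13), Ccna2 (1.59 ± 0.23) and Mki67 (1.26 ± 0.19). Stag3 (0.96 ± 0.20) and the cohesin gene Smc1b (1.31 ± 0.41) rose among the 6 genes of meiosis. Ret and Smc1b exceeded the filter level in 0 of 14 sham arrays and Ccna2 in 2 of 14. They were tested through the other groups, so their differences from sham are descriptions. The counts against sham include such genes.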

How the data were processed

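Biotin-labelled RNA made from total RNA of testes was hybridised to Affymetrix rat arrays. The deposited values come from MAS5, per the submitters' processing notes. As they include negative values, the deposited signals were read as log2. The base and the scaling are not given in the sources used here, and fold changes rest on this reading. The values were used without further normalization or pseudocount. Of 31099 probe sets, 57 controls were left out, and of the remaining 31042, 20826 had 1 gene symbol, 436 several and 9780 none in the platform annotation, whose symbols were updated through Entrez numbers. Detection calls were not used here, and the number of arrays limits the precision. Differences were tested with limma 3.58.1 in R 4.3.3 (eBayes with a variance trend, 31 arrays, 3 groups, 2-sided). A further fit had all values below the 40th percentile of their array raised to it.

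The genes and lists were chosen with earlier results of these data known. Genes called in any comparison, and Uchl1, Sohlh1 and Sycp3, were given full values, the others means or ranges, and up to 4 called genes with the smallest adjusted p were named per further list. The main fit did not pair arrays by replicate number. The correlations of deviations of same-numbered arrays were -0.0855 to 0.0467 for sham and ablation, -0.182 to 0.0594 for ablation and estradiol, and -0.0107 to 0.376 for sham and estradiol arrays. For sham and estradiol arrays numbered 1, 2 and 5 they were 0.376, 0.233 and 0.36, so these values do not settle whether those arrays were paired. The pipeline was tested on simulated data. Other filters, scalings, models, sham subsets and left-out arrays were tried as alternatives.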

Additional observations from a re-analysis of the deposited data

Results flagged for a closer look

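Among 21 groups of 6 estradiol arrays, 1 for each gene, Cdh1 in estradiol array 3 stood apart as the lowest, at -6.34 (log2) against -3.82 to -2.66 in the other 5 arrays. All of these values lay below the filter level. Its gap to the nearest array was 0.68 of the whole range, above Dixon's critical value for 6 arrays. Chance marks about 1 in 20 such groups.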

How the results depend on the processing

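The count of genes called with ablation against sham was 10, all higher. It was 5 with a filter at the 60th percentile, which left 9 of the genes tested, and 6 with low values raised, and leaving out 1 array gave 9 to 11, the 11 including Taf4b as lower. For estradiol against ablation the count of 1 became 3 with low values raised, 2 after quantile normalization or median centring, and 0 without the 8 arrays farthest out on a component within groups. It ranged from 0 to 2 with 1 array left out. For estradiol against sham the count of 11 became 5 with the 60th percentile filter and ranged from 9 to 12 with 1 array left out. Of the genes above the 40th percentile in all arrays 4 were counted, against 9 at the 20th and 1 at the 60th percentile. The replicate number as a block gave counts of 7, 1 and 10. Under it Dnmt3b (1.50, adjusted p = 0.0929, limma), Sycp3 (0.85, adjusted p = 0.1001) and Erhl1 (1.35, adjusted p = 0.0815) lost the call with ablation against sham, and Sycp3 that with estradiol against sham (0.92, adjusted p = 0.293). In that block Sox3 was not called against ablation alone (0.61, adjusted p = 0.111, limma) and Foxo1 was (0.60, adjusted p = 0.0482).

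A sign turned in 18 values, those of Adgra3 with the mean of its probe sets being the farthest from 0. Uchl1 with ablation was 0.00 under the replicate block and 0.09 without the 8 arrays, Foxo1 with the mean of its probe sets -0.05 and Adgra3 -0.34, and Thy1 0.23 against the sham arrays described as irradiated. For estradiol against ablation, Adgra3 was 0.04 with array weights and 0.67 with the mean of its probe sets, Dnmt3b -0.19 and Sycp3 -0.06 without the 8 arrays. Taf4b for estradiol against sham was 0.04 under the replicate block. With 1 array left out, Thy1 with ablation ranged from -0.11 to 0.02, and for estradiol against ablation Epcam from -0.17 to 0.06, Adgra3 from -0.11 to 0.04 and Dnmt3b from -0.04 to 0.57. The causes were not tested. Leaving out the 3 or the 8 arrays was chosen after seeing the data. Over all single genes and settings 2152 values kept direction and call, 42 lost and 25 gained the call.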
